A study of Saccharomyces cerevisiae with 46 samples.

Results

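The genes examined encode the chromosomal passenger complex of budding yeast and the shugoshin protein that helps to place it. They are IPL1, SLI15, BIR1, NBL1 and SGO1, 5 of the 6002 nuclear protein-coding genes. They were taken as a named complex and its partner, and their DNA copy level was read from the bins that overlap them in each of 46 samples. The study, by its title, concerned chromosome gains in cells deficient in Bub3, a protein of the spindle checkpoint. Genomic DNA from overnight cultures of the W303 background, a common laboratory strain, was sequenced, and the deposited value was a log2 copy ratio per bin of 1 kb. There were 20 lines, named by a letter and a digit, each with an evolved and a non-evolved sample. Lines C2, E3 and G4 also had a sample called evolved_Bub3. The wildtype, LY1, was sampled once in the evolved_Bub3, the evolved and the non-evolved state.

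Beyond W303 and the word wildtype for LY1, the labels give no genotype. They give no ploidy, no account of how the lines are related, and no statement of what separates evolved_Bub3 from evolved samples. All groups share W303, and no treatment or allele is named for any of them.

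The chromosomal passenger complex corrects wrong attachments of chromosomes to the spindle. Ipl1, the yeast Aurora B kinase, phosphorylates kinetochore proteins that are not under tension, so that their microtubules are released. Sli15, the yeast INCENP, is the scaffold that activates Ipl1 and ties it to the other subunits, and Bir1 (the yeast survivin) and Nbl1 (the yeast borealin) bring the complex to the centromere. Sgo1 sits on centromeric chromatin marked by the checkpoint kinase Bub1, the partner of Bub3, and helps to recruit the complex there.

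Each gene lies on a chromosome of its own. SLI15 (YBR156C) is at chrII:551104-553200, BIR1 (YJR089W) at chrX:587718-590582, NBL1 (YHR199C-A) at chrVIII:498571-498859, IPL1 (YPL209C) at chrXVI:156490-157593 and SGO1 (YOR073W) at chrXV:464771-466543, all in R64, the assembly of strain S288C. IPL1 is on a left arm and the other 4 on right arms. SGO1 shares chromosome XV with BUB3 (YOR026W, chrXV:379781-380806). The genes span 2097 bp for SLI15, 2865 bp for BIR1, 289 bp for NBL1, 1104 bp for IPL1 and 1773 bp for SGO1. They overlap 3, 4, 1, 2 and 3 bins in that order.

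The reads behind a value set its precision. The bins of BIR1 held 514 to 1492 reads per sample (median 882.5) and those of SLI15 337 to 1307 (median 700.5). SGO1 had 335 to 851 (median 601), IPL1 242 to 568 (median 419.5) and NBL1, with its single bin, 133 to 403 (median 252.5). At the median number of reads the counting error of a level was 0.05 (SE, log2) for BIR1 and 0.09 for NBL1. NBL1 fills 28.9% of its bin, so its level is mostly that of the DNA beside it.

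Levels are log2 copy ratios minus the sample baseline, which is the median of the 16 nuclear chromosome medians. A level of 1 is a doubling over the baseline, and a level at or above 0.3 is called an extra copy here. In bulk DNA, an extra copy in part of the cells and a smaller ratio in every cell cannot be told apart.

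The scaffold gene SLI15 had an extra copy more often than any other member at this threshold. Its level was at or above 0.3 in 8 of 20 evolved and 8 of 20 non-evolved lines. Over all genes and samples, 6.47% of levels in evolved and 7.29% in non-evolved lines passed that threshold. SLI15 ranged from -0.31 to 0.95 (median -0.02) in evolved lines, against -0.28 to 0.94 (median 0.07) in non-evolved lines. The values fell into separate clusters in both states, with few samples in between. In evolved lines, 7 levels lay at 0.72 or above and 12 at 0.07 or below, and F4 stood between them at 0.30. In non-evolved lines, 8 levels lay at 0.74 or above and 12 at 0.11 or below. Among the called samples the median level was 0.85 in evolved and 0.82 in non-evolved lines.

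The step can also be given in reads, which were recovered from the same ratios and are not separate evidence. In E4 the 3 bins of SLI15 held 387, 392 and 380 reads in the evolved sample, whose median bin held 205. In the non-evolved E4 sample they held 143, 140 and 156 reads, against a median bin of 181. The evolved E4 sample thus had 1.89 times the baseline at SLI15, and the non-evolved sample 0.821 times. The latter value was particular to these 3 bins. Relative to its chromosome it was -0.33, the lowest SLI15 value of the 46 samples. Chromosome II stood at 0.04 in the non-evolved E4 sample, and the bins within 10 kb at -0.02. In the evolved E4 sample both stood at 0.92.

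BIR1, the survivin gene, was called in 3 evolved and 4 non-evolved lines. Its level ranged from -0.11 to 0.95 (median -0.01) in evolved lines, against -0.10 to 0.86 (median 0.01) in non-evolved lines. The evolved lines called were F4 at 0.95, D4 at 0.88 and B3 at 0.37. The non-evolved lines called were A3 at 0.86, E4 at 0.85, G4 at 0.79 and D4 at 0.39. B3 evolved and D4 non-evolved were thus well below the other called samples. All other lines stood at 0.11 or below in the evolved and 0.16 or below in the non-evolved state.

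NBL1, the borealin gene, had its extra copies at levels that were more spread out. It was called in 6 evolved and 3 non-evolved lines. The level ranged from -0.02 to 0.80 (median 0.19) in evolved lines, against -0.20 to 0.99 (median 0.16) in non-evolved lines. In the evolved state, A3 stood at 0.80, D4 at 0.79 and C4 at 0.70, followed by A2 at 0.38, A4 at 0.37 and E4 at 0.31. In the non-evolved state, E4 stood at 0.99, D4 at 0.71 and A3 at 0.40. No gap separated the lower calls from the rest: C2 evolved, at 0.29, and B2 non-evolved, at 0.29, lay just under the threshold.

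The low NBL1 calls rest on 1 bin. With the median of all bins within 10 kb of the gene, a choice that uses more reads, NBL1 was called in 3 evolved lines (A3, C4 and D4) and 2 non-evolved lines (D4 and E4). By that measure 5.88% of all gene levels passed in evolved and 6.59% in non-evolved lines. There A2 evolved stood at 0.26, A4 evolved at 0.16, E4 evolved at 0.03 and A3 non-evolved at 0.24. The NBL1 bin also averaged 0.09 above chromosome VIII over the 46 samples, the largest such offset in size of the 5 genes. Among 974 genes that overlap a single bin, 2.63% of levels were called although the chromosome stood below 0.1, against 0.143% among genes with 3 bins.

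IPL1, the kinase gene, and SGO1, the shugoshin gene, were called in 0 of 20 lines in either state. By single state, 68.6% of all genes were called in no evolved line and 58.6% in no non-evolved line. The share called in neither state was not counted. IPL1 ranged from -0.18 to 0.26 (median -0.01) in evolved lines, against -0.21 to 0.15 (median -0.04) in non-evolved lines. Its highest level, 0.26 in D2 evolved, was -0.01 over the bins within 10 kb. SGO1 ranged from -0.13 to 0.04 (median -0.05) in evolved lines, against -0.21 to 0.07 (median -0.04) in non-evolved lines. The chromosomes of these genes, XVI and XV, stayed between -0.05 and 0.05 in all evolved and non-evolved lines.

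**Figure D1:**
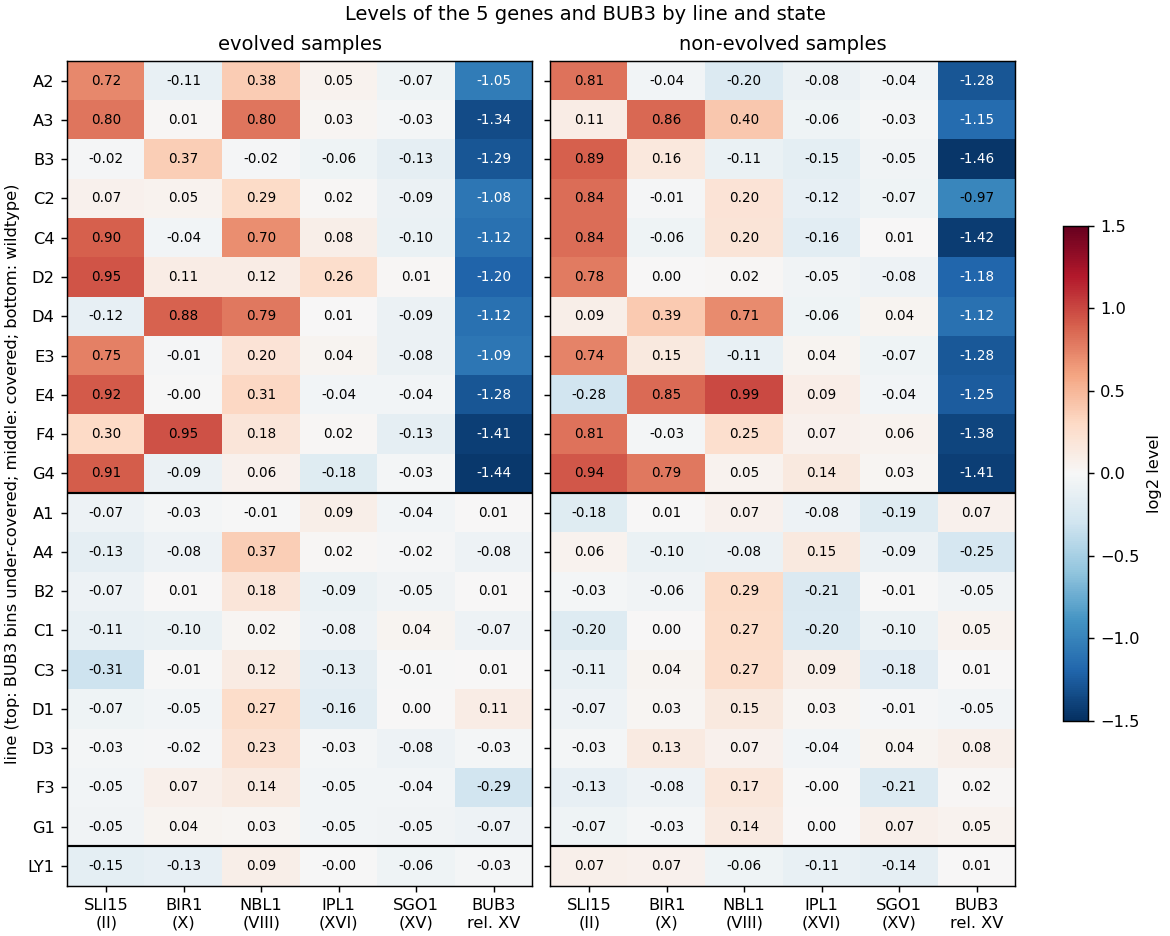
Levels of the 5 genes and of BUB3 by line, with evolved samples on the left and non-evolved samples on the right; colour and printed number give the log2 level, relative to the sample baseline for the 5 genes and to chromosome XV for BUB3. Levels at or above 0.3 fall in the top block of 11 lines, where BUB3 is low, except NBL1 of A4 evolved at 0.37; IPL1 lies between -0.21 and 0.26 and SGO1 between -0.21 and 0.07.

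**Figure D2:**
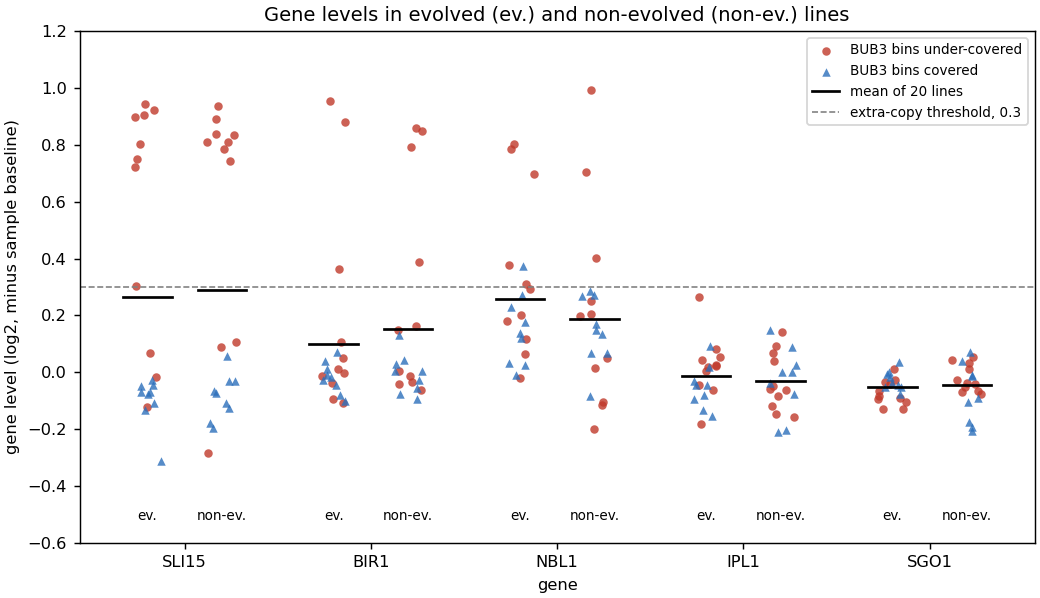
Gene levels (log2, minus the sample baseline) in 20 evolved and 20 non-evolved lines; each point is a sample, the bar is the mean, the dashed line is the threshold of 0.3, and red circles are lines with under-covered BUB3 bins. SLI15 and BIR1 split into high and low samples, whereas NBL1 has a run of samples just below and above 0.3.

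The calls were then set beside the coverage of BUB3. BUB3 overlaps 2 bins, and their mean relative to chromosome XV placed every line on the same side of -0.6 in both states. In 11 lines it lay between -1.44 and -1.05 in the evolved and between -1.46 and -0.97 in the non-evolved state. In the other 9 lines it lay between -0.29 and 0.11 in the evolved and between -0.25 and 0.08 in the non-evolved state. The gap was read from the data, and BUB3 coverage is no label, so the lines on either side were not tested against each other and no genotype was assigned.

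Extra copies of the members fell almost entirely in the 11 lines with under-covered BUB3 bins. In these, at least 1 member was called in 10 of 11 evolved and 11 of 11 non-evolved samples. In the 9 lines with covered BUB3 bins it was 1 of 9 evolved and 0 of 9 non-evolved samples. The exception was NBL1 of A4 evolved, at 0.37, whose chromosome VIII stood at 0.03. Over the bins within 10 kb the count in these 9 lines was 0 in both states, and the counts in the 11 lines were again 10 and 11. Over all genes, 10.1% of levels passed the threshold in evolved and 9.85% in non-evolved samples of the 11 lines. In the 9 lines 1.99% of evolved and 4.16% of non-evolved levels passed. Over the bins within 10 kb these were 9.6% evolved and 9.19% non-evolved in the 11 lines, and 1.32% evolved and 3.4% non-evolved in the 9 lines. These shares are per gene level, so counts of samples with any of 5 genes called cannot be set against them. Taken by member, SLI15 was called in 8 evolved and 8 non-evolved samples of the 11 lines. BIR1 was called in 3 evolved and 4 non-evolved of them, NBL1 in 5 evolved and 3 non-evolved, and IPL1 and SGO1 in 0.

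In the 11 lines, SLI15 was called in more samples than any other member, and most samples without it had BIR1 called. Of the 22 evolved and non-evolved samples of the 11 lines, SLI15 was called in 16. Of the 6 without it, 5 had BIR1 called, and 4 of those 5 also had NBL1. Of the 16 with SLI15 called, 2 also had BIR1 and 4 also had NBL1. D4 counts in both states among the 6, and whether calls of members depend on each other was not tested. C2 evolved alone had none of the members called, with SLI15 at 0.07, BIR1 at 0.05 and NBL1 at 0.29. Its gained chromosomes were I and III. Over the bins within 10 kb, SLI15 was called in 15 of the 22 samples, and 6 of the other 7 had BIR1 or NBL1.

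Members were called alone or in pairs, and never all 3 of SLI15, BIR1 and NBL1. SLI15 was alone in 3 evolved and 7 non-evolved samples of the lines. It was paired with NBL1 in 4 evolved samples (A2, A3, C4 and E4) and 0 non-evolved samples. SLI15 and BIR1 were called together in F4 evolved and G4 non-evolved. BIR1 and NBL1 were called together in D4 evolved, and in A3, D4 and E4 non-evolved. B3 evolved had BIR1 alone and A4 evolved NBL1 alone. In all, 6 evolved and 4 non-evolved lines had 2 or more members called. That number depended on the levels near 0.3: over the bins within 10 kb it was 3 evolved lines (A3, C4 and D4) and 2 non-evolved lines (E4 and G4). F4 evolved was not among the pairs there, with SLI15 at 0.22.

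The subunits were unequal in dose within a sample. The highest minus the lowest member level was 0.38 to 1.09 (median 0.93) in the evolved samples of the 11 lines, and 0.77 to 1.28 (median 0.92) in their non-evolved samples. The 0.38 was that of C2 evolved, where no member was called. Its NBL1 level of 0.29, on 1 bin, was 0.04 over the bins within 10 kb. In the 9 lines with covered BUB3 bins the difference was 0.09 to 0.51 (median 0.27) in evolved and 0.17 to 0.50 (median 0.26) in non-evolved samples. No chromosome of a member was at or above 0.3 in these 9 lines. The wildtype samples gave 0.16 to 0.24.

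Where a chromosome was gained, its member followed it, and the bins on either side of SLI15 and BIR1 stood within 0.04 of each other. The level of a gene minus the level of its chromosome, over all 46 samples, averaged -0.06 ± 0.09 (SD) for SLI15, -0.02 ± 0.07 for BIR1 and 0.09 ± 0.13 for NBL1. It averaged -0.01 ± 0.09 for IPL1 and -0.03 ± 0.07 for SGO1. In the 16 samples with chromosome II at or above 0.3, the 551 bins to the left of SLI15 had medians of 0.77 to 0.93 and the 260 bins to its right 0.78 to 0.95. The sides differed by at most 0.04 within a sample. For BIR1 and chromosome X, in 6 samples, they differed by at most 0.04 as well.

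The sides of NBL1 differed by up to 0.14 in the 7 samples with chromosome VIII at or above 0.3. They also differed by up to 0.16 in the 39 other samples, so the step at NBL1 was no larger where VIII was gained. NBL1 lies 63.9 kb from the chromosome end, and only 64 bins are to its right. B3 evolved, where BIR1 was intermediate, had 0.38 on its left and 0.39 on its right. F4 evolved, where SLI15 was at 0.30, had 0.25 and 0.27. The intermediate levels of these samples thus ran along the whole chromosome.

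**Figure D3:**
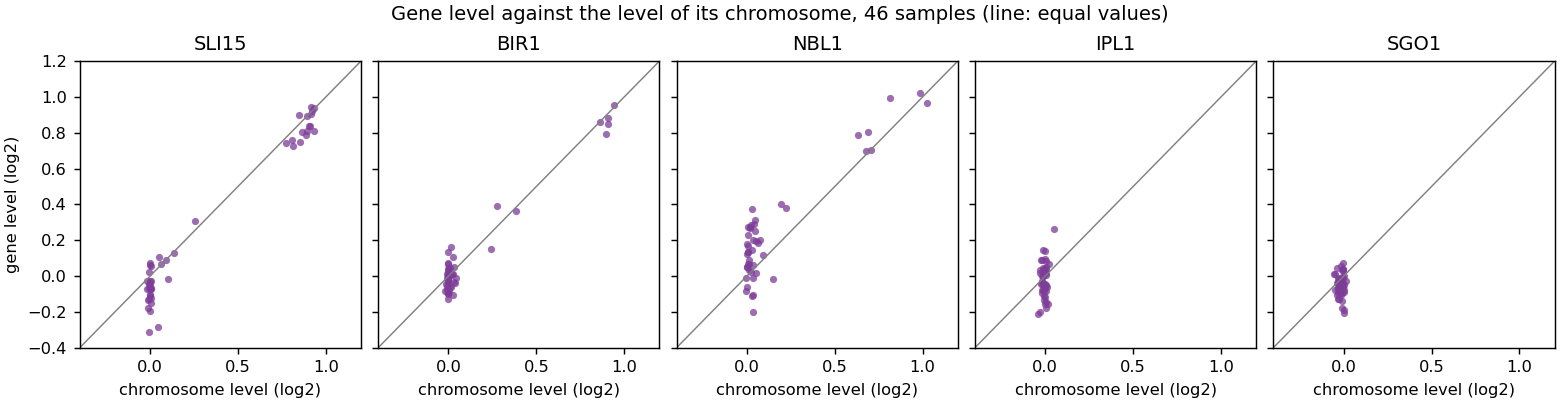
Level of each gene (vertical, log2) against the level of its chromosome (horizontal, log2) in 46 samples, 1 point per sample, with the line of equal values. Points of SLI15 and BIR1 follow the line; those of NBL1 with its chromosome near 0 spread up to 0.37, and IPL1 and SGO1 have no point at a gained chromosome.

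**Figure D4:**
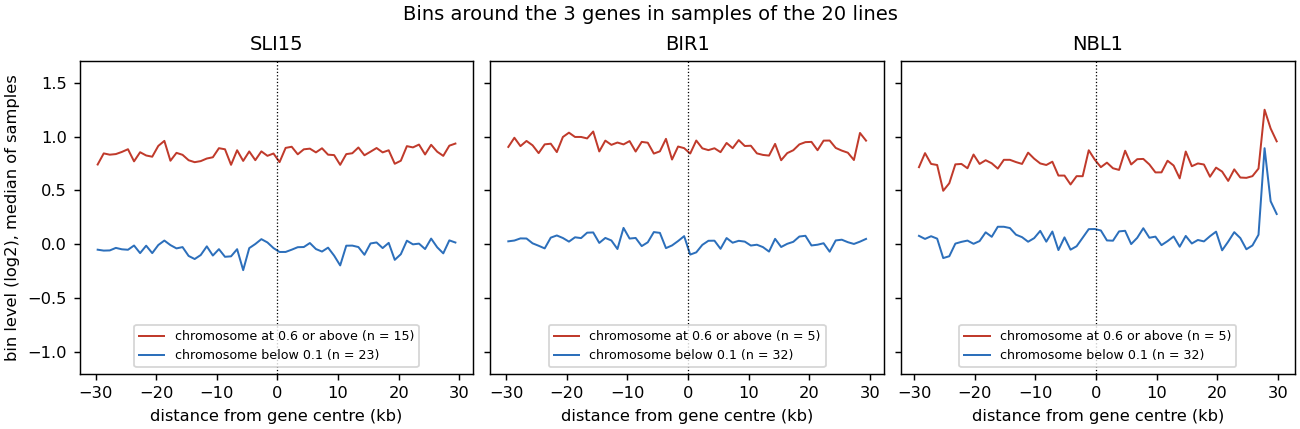
Bin level (log2) against the distance from the gene centre (kb), as the median over samples of the 20 lines with the chromosome at 0.6 or above (red: 15 samples for SLI15, 5 each for BIR1 and NBL1) and below 0.1 (blue: 23, 32 and 32). The red line stays near one height across each 30 kb flank of SLI15 and BIR1. Beyond 27 kb to the right of NBL1 both lines are higher, at 1.25 (red) and 0.89 (blue) in the first bin.

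The neighbours of the members on the same chromosome gave similar counts. Among 411 genes of chromosome II, the median gene was called in 7 evolved and 8 non-evolved lines, beside 8 and 8 for SLI15. Among 356 genes of chromosome X it was 3 evolved and 4 non-evolved lines, which are the counts of BIR1. Among 288 genes of chromosome VIII it was 3 evolved and 2 non-evolved lines, below the 6 and 3 of NBL1. On XVI and XV the median was 0, as for IPL1 and SGO1. Of the genes on VIII, 5.9% were called in as many evolved lines as NBL1 or more, against 33.8% of the genes on II for SLI15. For non-evolved lines the shares were 23.3% on VIII and 97.6% on II. The evolved count of NBL1 comes from its single bin, and it was 3 over the bins within 10 kb.

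The genes most like each member over the 46 samples were found by the root mean square difference of their levels. For SLI15 they were EDS1 (0.09), STU1 (0.09) and MAK5 (0.09), and all of its 50 nearest genes lay on chromosome II. BIR1 was nearest to UBP12, BUD4 and HIR3 (0.08 each), with all 50 on X. NBL1 was nearest to YHR112C (0.13), STB5 (0.13) and WSC4 (0.14), with all 50 on VIII. For IPL1 the nearest were PDR16 on XIV (0.09), CRM1 on VII (0.09) and ECM5 on XIII (0.09), and 7 of 50 lay on XVI. For SGO1 they were YSP2 on IV (0.07), RRP5 on XIII (0.07) and IRA2 on XV (0.08), with 12 of 50 on XV. IPL1 and SGO1 were called in none of the samples, so there was no gain for their nearest genes to share. Those distances were near the SD of IPL1 (0.09) and SGO1 (0.07) relative to their own chromosomes.

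The next comparison asked whether the level of a member differed between the states of a line. No member passed the test. Levels were fitted for 5885 genes with limma, with the line as block. The adjusted p is Benjamini-Hochberg over all of these genes, which share chromosomes and are not independent. At an adjusted p under 0.05, 0% of genes passed, or 0 of 5885, while 185 had an unadjusted p under 0.05. A paired sign-flip permutation test also called 0 genes, and 224 had an unadjusted p under 0.05.

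NBL1 had the largest difference among the members, with a mean of 0.26 ± 0.25 (SD, n = 20) in evolved and 0.19 ± 0.28 in non-evolved lines. The difference was 0.07 ± 0.06 (SE; limma, adjusted p = 0.981), with a 95% interval of -0.06 to 0.20 and a higher level in 12 of 20 evolved samples. SLI15 averaged 0.26 ± 0.46 in evolved and 0.29 ± 0.46 in non-evolved lines, a difference of -0.03 with an interval of -0.22 to 0.17 (limma, adjusted p = 0.982, higher in 11 lines). BIR1 averaged 0.10 ± 0.30 in evolved and 0.15 ± 0.31 in non-evolved lines, a difference of -0.05 with an interval of -0.24 to 0.14 (limma, adjusted p = 0.981, higher in 10 lines). For IPL1 the difference was 0.02 (interval -0.06 to 0.09) and for SGO1 -0.01 (interval -0.06 to 0.05). Evolved minus non-evolved differences of single lines ranged from -0.91 to 1.21 for SLI15 and from -0.89 to 0.99 for BIR1. The 1.21 was that of E4, whose non-evolved SLI15 level relative to its chromosome was -0.33.

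Relative to the chromosome, no member passed the test either. The fit called 0% of genes (0 of 5885, with 278 at an unadjusted p under 0.05). The differences of the 5 members lay between -0.01 for BIR1 and 0.03 for NBL1 (limma, adjusted p = 0.983 for NBL1 and 0.99 for BIR1).

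Behind these averages, the called members differed between the states of many lines. SLI15 was called in both states of 6 lines (A2, C4, D2, E3, F4 and G4), in the evolved state alone of A3 and E4, and in the non-evolved state alone of B3 and C2. BIR1 was called in both states of D4, in the evolved state alone of B3 and F4, and in the non-evolved state alone of A3, E4 and G4. NBL1 was called in both states of A3, D4 and E4, and in the evolved state alone of A2, A4 and C4. The set of called members was the same and not empty in both states of 3 lines, D2, D4 and E3, and it differed in 9. The other 8 lines had no call in either state. Over the bins within 10 kb the set was the same in A2, D2 and E3 and differed in 8 lines. By that measure NBL1 was called in both states of D4, in A3 and C4 evolved alone, and in E4 non-evolved alone. BIR1 was called in both states of 0 lines there, with D4 called in the evolved state alone. SLI15 was called in both states of 5 lines, with F4 called in the non-evolved state alone.

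Some lines had another subunit gene called in each state. In E4, BIR1 stood at -0.00 and NBL1 at 0.31 in the evolved sample, against 0.85 and 0.99 in the non-evolved sample. SLI15 of E4 stood at 0.92 evolved and -0.28 non-evolved, the latter being -0.02 over the bins within 10 kb. In A3, BIR1 stood at 0.01 evolved and 0.86 non-evolved, and SLI15 at 0.80 evolved and 0.11 non-evolved. B3 and F4 had the opposite arrangement. SLI15 stood at -0.02 in B3 evolved, against 0.89 in B3 non-evolved, and at 0.30 in F4 evolved, against 0.81 in F4 non-evolved. BIR1 stood at 0.37 in B3 evolved, against 0.16 in B3 non-evolved, and at 0.95 in F4 evolved, against -0.03 in F4 non-evolved. In C2, SLI15 stood at 0.07 evolved and 0.84 non-evolved, and no member was called in the evolved sample. These 5 lines thus ran in both directions. Libraries were numbered state by state in the labels, so the order of the libraries and the state of the lines cannot be told apart.

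The evolved_Bub3 samples each carried an extra copy of 1 member, a member that its evolved counterpart did not have called. BUB3 relative to chromosome XV was 0.76 in C2, 1.42 in E3 and 1.34 in G4 evolved_Bub3, against -1.08, -1.09 and -1.44 in the evolved samples of these lines. NBL1 stood at 1.02 in E3 and 0.97 in G4 evolved_Bub3, against 0.20 and 0.06 in their evolved samples. SLI15 stood at 0.02 in E3 and 0.13 in G4 evolved_Bub3, against 0.75 and 0.91 in their evolved samples. In C2, SLI15 stood at 0.76 in the evolved_Bub3 and 0.07 in the evolved sample, and NBL1 at 0.05 in the evolved_Bub3 and 0.29 in the evolved sample. SLI15 was also called in the non-evolved samples of these 3 lines, at 0.84 in C2, 0.74 in E3 and 0.94 in G4. Over all genes, 9.04% of levels in evolved_Bub3 samples passed 0.3, and 8.41% did over the bins within 10 kb. IPL1, BIR1 and SGO1 were called in 0 of the 3 evolved_Bub3 samples, with levels of -0.07 to 0.05.

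In reads recovered from the same ratios, the single bin of NBL1 held 374 in E3 evolved_Bub3, where the median bin held 186. In E3 evolved it held 269, with a median of 236. It held 262 with a median of 136 in G4 evolved_Bub3, against 223 with a median of 216 in G4 evolved. These are 2.03 and 1.96 times the baseline in the evolved_Bub3 samples of E3 and G4. Unlike the low NBL1 calls above, they held over the bins within 10 kb, at 1.0 and 1.11.

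With 3 lines, no member passed the test of evolved_Bub3 against evolved. NBL1 averaged 0.68 ± 0.55 (SD, n = 3) in evolved_Bub3 and 0.19 in evolved samples, a difference of 0.49 ± 0.27 (SE; limma with the line as block, adjusted p = 0.94, interval -0.28 to 1.26). SLI15 averaged 0.30 ± 0.40 (SD, n = 3) in evolved_Bub3 and 0.57 in evolved samples, a difference of -0.27 ± 0.35 (limma, adjusted p = 0.94, interval -1.26 to 0.72). The fit called 0% of genes, or 0 of 5885, with 209 at an unadjusted p under 0.05. The result turned on C2. Without it the difference was 0.86 for NBL1 (limma, adjusted p = 2.22e-05) and -0.75 for SLI15 (limma, adjusted p = 4.47e-05), with 739 genes called. That fit rests on 2 lines and on the spread borrowed across genes, which share whole chromosomes. An exact sign-flip test of 3 pairs cannot give a p below 0.25.

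**Figure D5:**
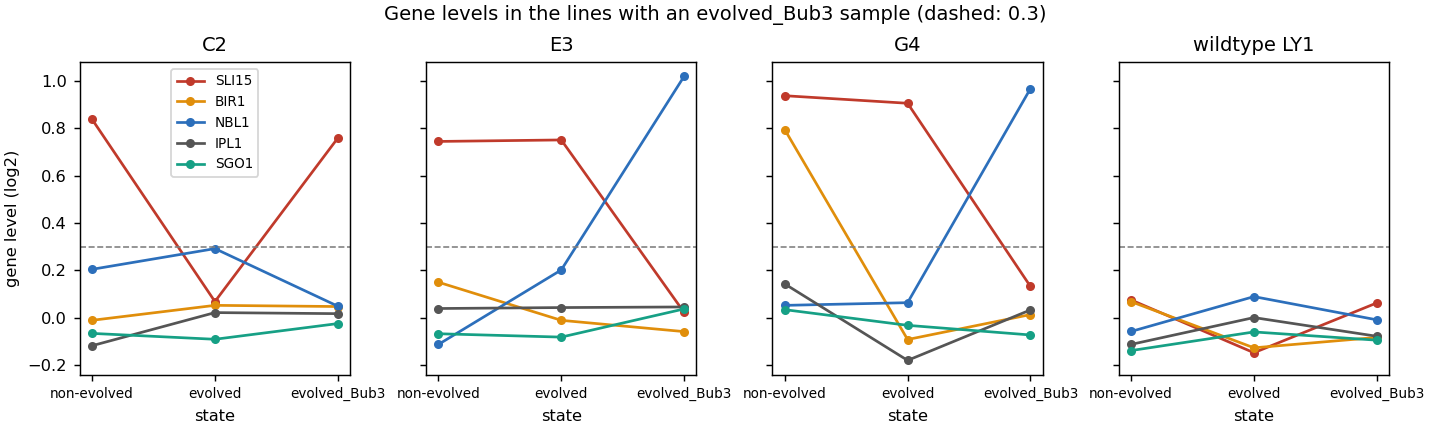
Gene levels (log2) of lines C2, E3 and G4 and of the wildtype LY1 in the non-evolved, evolved and evolved_Bub3 states, 1 sample per point, with the threshold of 0.3 dashed. At the last step SLI15 is lower and NBL1 higher in E3 and G4, SLI15 is higher in C2, and the wildtype stays between -0.15 and 0.09.

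The wildtype had no member called in any state, with 0.702% of all its gene levels at or above 0.3. Its 5 genes lay between -0.10 and 0.06 in the evolved_Bub3 sample, between -0.15 and 0.09 in the evolved one and between -0.14 and 0.07 in the non-evolved one. BUB3 relative to XV was 1.19 in its evolved_Bub3 sample, so a high BUB3 level occurred there without an extra copy of a member. With 1 sample per state this was not tested.

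A list of 30 partners and substrates of the complex was followed in the same way. These are kinases and phosphatases that act with or against Ipl1, kinetochore and histone genes that bind or are phosphorylated by it, and checkpoint genes. Of all levels of the list, 7.5% in evolved and 7.67% in non-evolved lines passed 0.3, beside 6.47% in evolved and 7.29% in non-evolved lines over all genes. The genes called in at least 4 lines of a state were 6, and 4 of them lie with SLI15 on chromosome II. Over all 5885 genes, 13.4% were called in at least 4 evolved lines and 14.1% in at least 4 non-evolved lines. These shares are by single state, whereas the 6 were counted over either state. Of the 6, TPD3 reached 4 lines in the evolved state alone and MAD3 in the non-evolved state alone. ALK2, a haspin kinase whose family marks histone H3 at centromeres, was called in 8 evolved and 8 non-evolved lines (mean level 0.31 evolved and 0.38 non-evolved). CDC28, the main cyclin-dependent kinase, was also called in 8 evolved and 8 non-evolved lines, with means of 0.31 evolved and 0.34 non-evolved.

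SHP1, a regulator of the phosphatase Glc7 that opposes Ipl1, was called in 7 evolved and 8 non-evolved lines, with means of 0.39 evolved and 0.41 non-evolved. HTA2, a gene of the histone H2A that Bub1 phosphorylates, was called in 7 evolved and 8 non-evolved lines, with means of 0.29 evolved and 0.34 non-evolved. MAD3, a checkpoint gene that lies on X as BIR1 does, was called in 3 evolved and 4 non-evolved lines. TPD3, the scaffold of the phosphatase PP2A, lies on I and was called in 5 evolved and 2 non-evolved lines, with means of 0.28 evolved and 0.07 non-evolved. Of the 30 genes, 20 were never called in a line of either state. The share of all genes called in neither state was not counted. By single state, 68.6% were called in no evolved line and 58.6% in no non-evolved line. Between evolved and non-evolved lines 0 of the 30 passed the limma fit over all genes (2 at an unadjusted p under 0.05), and the median difference was -0.01, beside -0.01 over all genes.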

How the data were processed

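Genomic DNA libraries were made by tagmentation and read from both ends, per the labels. The authors deposited log2 copy ratios, 1 value per 1 kb bin and sample, per the file headers. The submitters' processing notes name GATK, Picard 2.27.1, BWA 0.7.17 and Trimmomatic 0.39; duplicate removal, GC correction and a panel of normals were not given in the sources used here. Header contigs match R64, the assembly of the RefSeq gene table used for positions; W303 differs from it in places.

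Whole reads were recovered from the ratios (at least 99.99% of values within 0.01 reads), with 1961866 to 3770032 reads per sample and 130 to 292 in the median bin. Intervals and errors over reads cover counting only. Empty bins received 0.5 reads, and 117 genes with a bin empty in over 50% of samples were left out of the fits. A gene level is the mean of its bins minus the sample baseline. Fits used limma 3.58.1 in R 4.3.3. A test on simulated data covered evolved minus non-evolved levels relative to the chromosome, drawn independently for each gene. It did not cover levels shared along a chromosome, or the fit of 3 lines. The line code in the titles pairs the samples; bin deviations of the 2 states of a line correlated at -0.01 to 0.09, so the pairing comes from the labels alone. No 2 samples held the same values. With the line as block, p-values rest on how far the difference between states varied from line to line. In limma this spread is also moderated across genes. The labels do not say how lines are related, so the pairs may not be independent. The text names all members, BUB3, partners called in at least 4 lines of a state, and the 3 nearest genes of each member. Members and lists were chosen with earlier results of these data known. Sequences were not used here.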

Additional observations from a re-analysis of the deposited data

How the results depend on the processing

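Thresholds of 0.2 and 0.5, another baseline, weighted bins, bins within 10 kb, removal of each gene's bin offset and, added after the data were seen, the whole-chromosome median were tried for the counts. SLI15 and BIR1 counts and the number of lines with at least 1 member stayed within 1.5 times. NBL1 was called in 10 evolved and 8 non-evolved lines at 0.2, and in 3 evolved lines at 0.5, within 10 kb, without the offset and by chromosome. Lines with 2 or more members numbered 3 evolved and 2 non-evolved at 0.5, within 10 kb and by chromosome. IPL1 was called in 1 evolved line at 0.2.

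Sign changes, all of differences that did not pass, were few. For evolved minus non-evolved, SGO1 gave 0.000879 with weighted bins (0.00438 relative to its chromosome), and BIR1 relative to its chromosome gave 0.00798 within 10 kb. For evolved_Bub3 minus evolved, BIR1 gave -0.0105 within 10 kb. Moderation with a trend called 9 genes there. Leaving out 1 of the 3 lines gave 0.29 to 0.86 for NBL1, -0.75 to -0.019 for SLI15, -0.0263 to 0.0502 for BIR1, -0.000934 to 0.11 for IPL1, 0.01 to 0.09 for SGO1 and 0 to 739 genes called; the high counts are those without C2. The causes were not tested. Fits without the replicate block changed no call: NBL1 had 0.07 for evolved minus non-evolved (limma, adjusted p = 0.999) and 0.49 for evolved_Bub3 minus evolved (limma, adjusted p = 0.902), and 0 genes were called in each. Depth limits NBL1 most, since its 1 bin held as few as 133 reads.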
